A study of Mus musculus with 2 samples.

Results

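*Gsto1* and 9 other genes of glutathione metabolism were followed through the cell populations of E7 mouse embryos with and without *Yap1* in the epiblast. The 10 genes were chosen by symbol, and all 10 were found among the 32285 genes of the count tables. They are the glutathione transferases *Gsto1*, *Gsta4*, *Gstm1*, *Gstp1* and *Mgst1*, the glutathione peroxidases *Gpx1* and *Gpx4*, the subunits *Gclc* and *Gclm* of the enzyme that makes the precursor of glutathione, and glutathione reductase, *Gsr*. *Gsto1* itself was selected on its low level in the extraembryonic ectoderm (ExE) of the *Yap1* cKO library. Its values there are therefore given as a description, and the comparison asks how the other genes of the group were placed.

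Each genotype was measured in 1 droplet library of single cells, in which transcripts carry unique molecular identifiers (UMIs). The control library came from a pool of 4 embryos of the genotype Sox2cre:Yapflox/+ and the *Yap1* cKO library from a pool of 3 Sox2cre:Yapflox/flox embryos, so both groups carried the Cre and at least 1 floxed allele. The sample labels call the control WT, and the methods on mice describe controls without Cre. Sox2-Cre acts in the epiblast and its derivatives and is not meant to recombine in ExE or visceral endoderm. The paper states, however, that its Yapflox/flox embryos, both control and cKO, are probably heterozygous for *Yap1* in those tissues, through a deleted paternal allele. It does not say whether this holds for the Yapflox/+ embryos of the control pool. Whether the pools differed in this way was not tested.

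The control library held 1829 barcodes and 70573418 UMIs and the *Yap1* cKO library 1897 barcodes and 87937858 UMIs. Barcodes with at least 5000 detected genes were kept, 791 and 864, with medians of 75715 and 80921 UMIs. None of them was shared between the libraries. Populations were drawn with gates on marker genes, and 183 control and 106 *Yap1* cKO cells fell into the ExE gate. The 6 ExE markers, among them *Elf5*, *Tfap2c* and *Cdx2*, summed to 838 CPM (counts per 1e6 UMIs of the same cells) in control ExE and 697 CPM in *Yap1* cKO ExE. All 5 decidual and all 4 leukocyte markers were below 1 CPM in ExE of either library. The 5-gene epiblast list summed to 1089 CPM in control ExE, with 4 genes at 1 CPM or more, and to 997 CPM in *Yap1* cKO ExE, with all 5, although the gate itself limited *Pou5f1*, and the part of these genes in the ExE values was not tested. *Yap1* UMIs fell from 649 in the control epiblast to 34 in the *Yap1* cKO epiblast, a ratio of CPM of 0.0429 (95% interval 0.0294 to 0.0605). In ExE the same ratio was 0.715 (0.607 to 0.840), with 433 and 232 UMIs. The paper, by contrast, reports similar *Yap1* expression in the extraembryonic clusters of both genotypes. It compared single cells of its own clusters, a measure unlike this ratio of summed counts. Both pools held cells with UMIs of Y-linked genes although the labels give the sex as female.

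Glutathione is a tripeptide with a free thiol that keeps the cell interior reducing. Glutamate cysteine ligase, made of a catalytic and a modifier subunit, starts its synthesis, peroxidases spend it on peroxides, and the reductase returns the oxidised form to use. Transferases couple it to electrophiles, and the omega class to which *Gsto1* belongs also reduces other molecules with it. Many of these genes answer to the transcription factor NRF2, which binds the antioxidant response element (ARE).

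Every ratio below is CPM in the *Yap1* cKO library over CPM in the control library, and the 95% interval in brackets covers counting error only. With 1 library per genotype no test was made, and the spread between embryos, pools and library preparations is not part of these intervals. A gene is called past the fold when the ratio reached 1.5 in either direction, and only genes whose UMIs in that population came to 100 or more over the pair of libraries were counted. UMIs were read from the 3' ends of transcripts, so levels are compared between populations for 1 gene and not between genes.

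*Gsto1* (ENSMUSG00000025068, chr19:47854970-47864790 on GRCm38, plus strand) was an ExE gene in both libraries. In the control library it stood at 916 CPM in ExE (902 to 931), from 15876 UMIs, against 64.8 CPM in the other gated cells together, a 14.1-fold difference (13.6 to 14.7). In the *Yap1* cKO library it stood at 316 CPM in ExE (307 to 326), from 4107 UMIs, against 78.9 CPM in the other cells, a 4.01-fold difference (3.84 to 4.18). The ratio in ExE was 0.345 (0.333 to 0.357). Among the 9928 genes with at least 100 UMIs in ExE this was the 11th lowest ratio, and among the 4298 genes with at least 1000 UMIs it was the 2nd lowest.

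The order of the populations was the same at the top in both libraries. ExE was followed by visceral endoderm, at 95 CPM in control cells (87.4 to 103) against 91.9 CPM in *Yap1* cKO cells (87.3 to 96.6), and then by epiblast, at 68.5 CPM (65.1 to 72.1) against 83.3 CPM (79.9 to 86.8). These first 3 levels had intervals that did not overlap. The remaining 6 populations lay between 42.2 and 53.6 CPM in the control library and between 45.8 and 70.4 CPM in the *Yap1* cKO library. Each interval overlapped the next in the order, so neighbours were not resolved. In the *Yap1* cKO library primitive streak (62.4 to 79.0) and nascent mesoderm (61.1 to 72.1) still lay above anterior visceral endoderm (35.9 to 57.6). In the control library the 4th to the last were blood and endothelial progenitors, primitive streak, nascent mesoderm, anterior visceral endoderm, node and axial mesendoderm, and lateral and extraembryonic mesoderm.

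**Figure D1:**
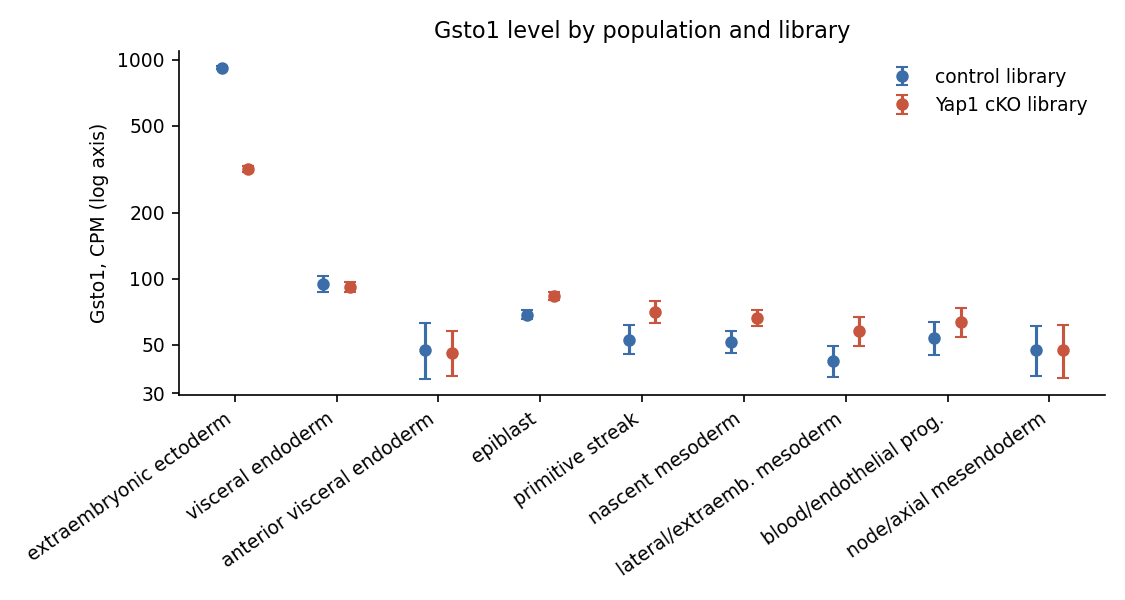
*Gsto1* level in CPM (log axis) in each gated population, with the control library in blue and the *Yap1* cKO library in red; bars are exact 95% Poisson intervals for counting error. ExE stands apart from all other populations in both libraries, at 916 CPM for the control and 316 CPM for *Yap1* cKO.

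The lower level in *Yap1* cKO ExE was spread over the cells. Control ExE cells had a median of 949 CPM per cell, with the 10th and 90th percentiles at 349 and 1344 CPM. *Yap1* cKO ExE cells had a median of 275 CPM, with these percentiles at 133 and 510 CPM. The highest of the 106 *Yap1* cKO cells reached 780 CPM, so 0 of them lay above the control median, while 11 of the 183 control cells (6.01%) lay below the *Yap1* cKO median. The share of ExE cells with a *Gsto1* UMI did not separate the libraries: with each cell thinned to 38000 UMIs (7 control and 5 *Yap1* cKO cells were shallower and were dropped) it was 98.3% (95.1 to 99.6) and 98.0% (93.0 to 99.8), and without thinning 98.9% and 98.1%. Ttr, a visceral endoderm gene read here as background, had a UMI in 0.568% and 2.97% of the thinned ExE cells, and the median depth of ExE cells was 84348 UMIs (control) and 100625 UMIs (*Yap1* cKO) before thinning.

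**Figure D2:**
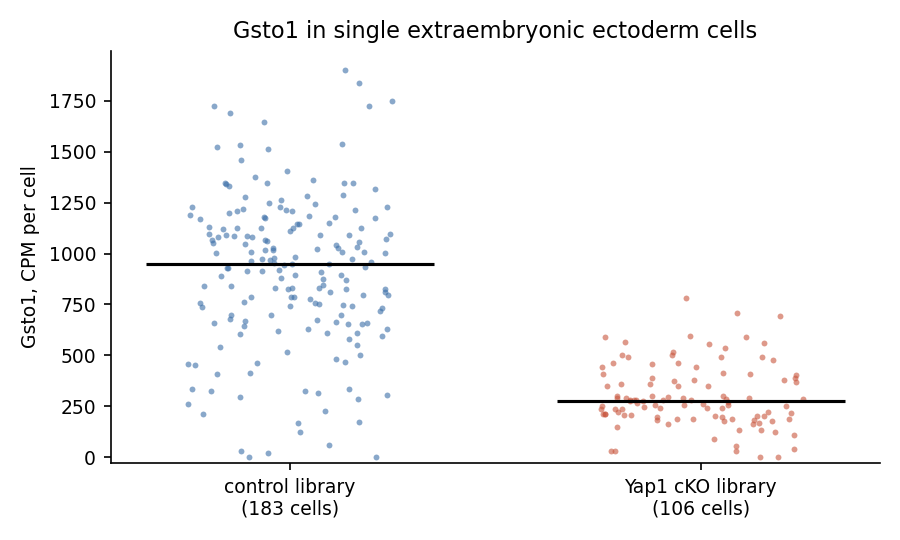
*Gsto1* in CPM in each ExE cell of the control library (183 cells) and the *Yap1* cKO library (106 cells); points are cells and lines are medians. The *Yap1* cKO cells sit below 780 CPM with a median of 275 CPM, against a median of 949 CPM in the control.

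Subsets of the ExE gate gave the same direction, but they divide the UMIs on which *Gsto1* was chosen and are not separate evidence. The distal side held 15028 of the 15876 control *Gsto1* UMIs and 3793 of the 4107 in *Yap1* cKO. In cells with more markers of the distal ExE than of the ectoplacental cone (165 and 93 cells), *Gsto1* had 961 and 336 CPM, which gives a ratio of 0.349 (0.337 to 0.362). The 16 and 12 cells with more ectoplacental cone markers held 464 CPM and 187 CPM, which gives 0.403 (0.351 to 0.461). *Gsto1* was thus lower in the cone-side cells of either library, and the libraries differed on both sides.

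The embryos of a pool cannot be told apart, but the sex-linked UMIs part each pool into cells of male and female embryos. In control ExE, *Gsto1* was at 836 CPM in Y-bearing cells (112 cells) and 1140 CPM in *Xist*-bearing cells (50 cells), so within the control library the cells of different embryos differed by a ratio of 1.36 (1.32 to 1.41). In *Yap1* cKO ExE the levels were 277 CPM (19 Y-bearing cells) and 318 CPM (76 *Xist*-bearing cells), a ratio of 1.15 with an interval above 1. Between the libraries the ratio came to 0.331 (0.306 to 0.357) for Y-bearing cells and 0.279 (0.267 to 0.292) for *Xist*-bearing cells. The highest of the *Yap1* cKO levels was below the lowest of the control levels. The gap within control ExE was wider than its counting interval. Sex and embryo cannot be told apart in it or in any split by sex below.

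The markers of the ExE gate were also lower in *Yap1* cKO ExE, by less than *Gsto1*. The ratio was 0.812 for *Elf5* (0.779 to 0.846), 0.828 for *Tfap2c*, 0.831 for *Cdx2*, 0.854 for *Wnt7b*, 0.873 for *Rhox6* and 0.975 for *Rhox9* (0.850 to 1.12), the last with an interval that held 1. *Eomes* and *Esrrb*, on the distal side, stood at 0.916 and 0.909, and *Ascl2*, on the cone side, at 0.948. Other markers moved with the libraries inside the gate as well: *Prl3d1*, a giant cell gene, had 2058 UMIs in 4 control cells, 56.9% of them in 1 cell, and 0 in the *Yap1* cKO library, and the other 4 genes of the giant cell list were below 1 CPM. The nascent mesoderm list stood at 1.10 CPM (0 of 2 genes at 1 CPM or more) and 17.2 CPM (1 of 2), and the visceral endoderm list at 17.8 CPM (3 of 7) and 26.2 CPM (4 of 7). Their part in the *Gsto1* ratio was not tested. Without the *Prl3d1* cells the ratio was 0.344.

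Cells were also set side by side at like levels of *Elf5*, a marker of the gate, in bins chosen after the values were seen. The other markers were not matched. Among cells with 100 to 250 CPM of *Elf5*, *Gsto1* was at 776 CPM in 29 control cells and 286 CPM in 26 *Yap1* cKO cells, a ratio of 0.368 (0.343 to 0.394). Among cells with 250 to 400 CPM the levels were 1001 and 347 CPM, a ratio of 0.347, and with 400 CPM or more 953 and 336 CPM, a ratio of 0.353. In the 5 control and 8 *Yap1* cKO cells under 100 CPM of *Elf5*, *Gsto1* was at 25.6 and 33.7 CPM, from 9 and 16 UMIs, with a ratio whose interval held 1. Pearson's r of log2(CPM + 1) between the genes over ExE cells was 0.810 for control cells and 0.781 for *Yap1* cKO cells. Spearman's rho over all ExE cells was 0.216 and 0.306. Over the 178 and 98 cells with at least 100 CPM of *Elf5* it was 0.148 and 0.122. Pearson's r was not computed without the cells under 100 CPM. Cells of 1 library share its pool and depth, and these values are descriptions.

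**Figure D3:**
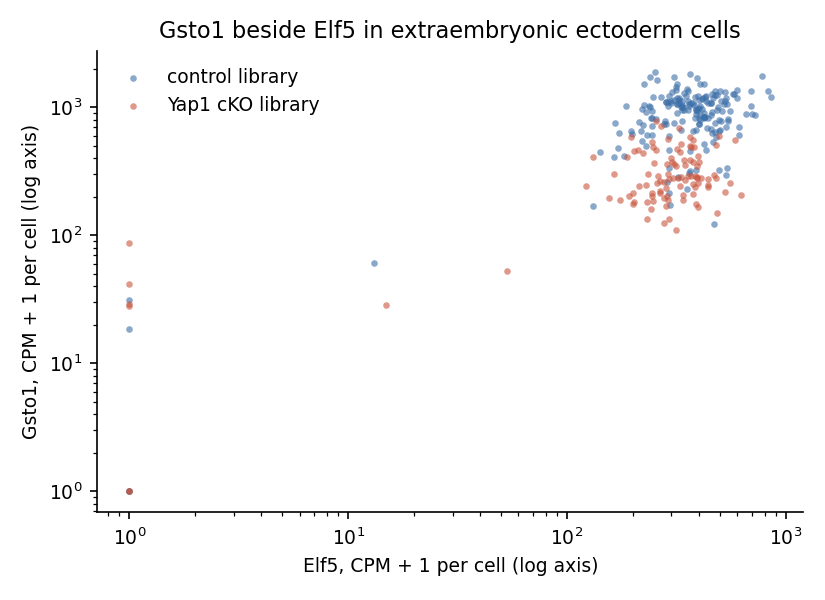
*Gsto1* against *Elf5* in each ExE cell, both as CPM + 1 on log axes, with control cells in blue and *Yap1* cKO cells in red. At like levels of *Elf5* the *Yap1* cKO cells lie lower in *Gsto1*, apart from the 5 control and 8 *Yap1* cKO cells with under 100 CPM of *Elf5*.

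Outside ExE the *Gsto1* ratio was near or above 1. In visceral endoderm it was 0.967 (0.878 to 1.07), from 570 and 1536 UMIs, and in anterior visceral endoderm 0.969 (0.664 to 1.43), from 48 and 73 UMIs. In the epiblast, where *Yap1* was deleted, it was 1.22 (1.14 to 1.30), from 1519 and 2256 UMIs. It was 1.33 (1.10 to 1.62) in the primitive streak, 1.29 (1.12 to 1.49) in nascent mesoderm and 1.37 (1.09 to 1.72) in lateral and extraembryonic mesoderm, and 1.18 (0.935 to 1.49) in blood and endothelial progenitors and 0.998 (0.674 to 1.47) in node and axial mesendoderm. Split by sex, the epiblast ratio came to 1.18 for Y-bearing cells (1.05 to 1.32) and 1.18 for *Xist*-bearing cells (1.08 to 1.29), and the gap between *Xist*-bearing and Y-bearing epiblast cells within a library was 1.11 in either. With gate thresholds doubled the epiblast ratio turned to 0.787. Doubling also raised the ExE threshold, and ExE cells carried 1089 and 997 CPM of the epiblast list. In the main epiblast gate the ExE list summed to 2.53 CPM in control cells, with 0 of 6 genes at 1 CPM or more. In *Yap1* cKO cells it summed to 7.46 CPM, with 3 of 6. Whether ExE cells entered the epiblast gate, as set or doubled, and their part in the epiblast ratio were not tested. The nascent mesoderm ratio was 0.987 in Y-bearing cells (11 *Yap1* cKO cells) and 1.37 in *Xist*-bearing cells.

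The *Gsto1* locus adds a measured limit. *Cfap43*, a gene of the ciliary axoneme, lies on the minus strand at chr19:47736857-47919287 and spans *Gsto1*, with 0 of its 51 annotated exons over it. It was the exception among the 10 coding genes within 1 Mb that had at least 100 UMIs in ExE, and it is named after its values were seen: its ratio there was 0.346 (0.271 to 0.439), from 339 and 88 UMIs, close to that of *Gsto1*. *Cfap43* UMIs amounted to 2.14% of the *Gsto1* UMIs in ExE of either library, against 39.5% and 36.1% in the epiblast, where the *Cfap43* ratio was 1.11 (0.999 to 1.24). In these counts, UMIs assigned to *Cfap43* in ExE cannot be told apart from RNA of the *Gsto1* locus, and the *Cfap43* value is uncertain.

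The next coding genes on the lower side of the chromosome did not share the *Gsto1* ratio. *Sfr1*, at a distance of 119 kb, stood at 279 and 311 CPM in ExE (ratio 1.11), *Slk* at 71.1 and 62.8 CPM (0.884) and *Stn1* at 29.8 and 29.6 CPM (0.995). On the higher side the nearest with enough UMIs lay over 5 Mb away, namely *Xpnpep1* (1.01), *Add3* (2.28, from 51 and 87 UMIs) and *Mxi1* (1.27). *Gsto2*, the other omega class gene, had 15 and 11 UMIs in ExE, too few for a comparison.

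The windows upstream of annotated starts were read from RefSeq promoter windows of 300 bases (build GRCm38.p6), which were matched for 7 of the 10 genes. The upstream 250 bases are shown for *Gsto1*, which carries the difference, and for *Gstp1* and *Gclm*, which hold ARE letters, with the matches in capitals. Both strands were searched for TGACNNNGC and TGAGNNNGC, forms of the ARE core, and for GGAATG, the letters that TEAD factors, the DNA-binding partners of YAP1, prefer. Of all 32851 windows, 12.4%, 17.6% and 14.7% hold them.
Gsto1, chr19:47854723-47854972, plus strand: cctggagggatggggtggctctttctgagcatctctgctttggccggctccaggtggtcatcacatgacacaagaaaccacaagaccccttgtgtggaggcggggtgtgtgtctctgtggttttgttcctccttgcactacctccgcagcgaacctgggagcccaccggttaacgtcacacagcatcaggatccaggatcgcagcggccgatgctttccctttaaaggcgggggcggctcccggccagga
Gclm, chr3:122245307-122245556, plus strand: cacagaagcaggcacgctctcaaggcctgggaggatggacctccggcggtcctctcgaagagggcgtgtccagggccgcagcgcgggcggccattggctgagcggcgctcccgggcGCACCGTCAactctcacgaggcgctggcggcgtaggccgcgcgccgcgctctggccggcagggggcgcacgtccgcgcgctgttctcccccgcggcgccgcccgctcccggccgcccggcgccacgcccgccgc
Gstp1, chr19:4037913-4038162, minus strand: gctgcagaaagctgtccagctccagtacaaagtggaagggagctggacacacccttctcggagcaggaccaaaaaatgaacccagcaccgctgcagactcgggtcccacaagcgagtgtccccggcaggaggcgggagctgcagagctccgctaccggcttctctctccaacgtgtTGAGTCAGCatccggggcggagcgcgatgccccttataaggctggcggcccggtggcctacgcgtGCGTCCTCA
The *Gsto1* window held none of these letters. *Gclm* held GCACCGTCA, the TGACNNNGC form read from the other strand, beginning 134 bases before the start. *Gstp1* held TGAGTCAGC beginning 74 bases before the start, which contains the AP-1 letters TGAGTCA, and GCGTCCTCA beginning 9 bases before it. *Mgst1* held GCACGGTCA in 1 of its 2 windows, 56 bases before the start, and the windows of *Gstm1*, *Gpx1* and *Gpx4* held no match, nor did any window hold GGAATG. A match of letters is a description and not a binding site, and *Gsta4*, *Gclc* and *Gsr* were not among the windows used.

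The other members did not follow *Gsto1* in ExE. Of the 9 others, 8 had at least 100 UMIs there, and 0 of these 8 were past the fold, against 1.32% of all 9928 genes at least 1.5-fold lower in *Yap1* cKO ExE and 1.36% at least 1.5-fold higher. Their ratios ran from 0.819 to 1.18 with a median of 0.971, beside a median of 0.961 over all genes. The intervals of 6 held 1, and those of 2, *Gsr* and *Gstp1*, lay below it, as did those of 23.3% of all genes, while 12.5% of all genes had intervals above 1.

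*Gsr*, which regenerates reduced glutathione, was the member next lowest to *Gsto1* in ExE, with 142 CPM in control cells (2464 UMIs) against 117 CPM in *Yap1* cKO cells (1513 UMIs), a ratio of 0.819 (0.768 to 0.874). By sex, Y-bearing and *Xist*-bearing control cells had 139 CPM and 140 CPM, and those of the *Yap1* cKO library 113 CPM and 119 CPM, so that both *Yap1* cKO levels were below both control levels. The *Gsr* ratio was also below 1 in visceral endoderm, at 0.881 (0.807 to 0.963), and in the epiblast, at 0.869 (0.821 to 0.921). In anterior visceral endoderm it went the other way and past the fold, at 1.58 (1.05 to 2.45), from 33 and 82 UMIs. The share of all genes past the fold was not computed there. In the epiblast the sexes gave 0.694 (Y-bearing) and 0.904 (*Xist*-bearing), and within the *Yap1* cKO library the *Xist*-bearing cells were 1.40-fold higher than the Y-bearing cells (1.27 to 1.55), a gap wider than the difference between the libraries.

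Among the transferases, *Gstp1*, the pi class enzyme, stood at 51.5 and 45.7 CPM in ExE, a ratio of 0.887 (0.799 to 0.985). *Gsta4*, the alpha class enzyme that acts on the lipid peroxidation product 4-hydroxynonenal, stood at 19.5 and 21.3 CPM (1.10, 0.932 to 1.29), and in the cone-side cells alone, from 22 and 48 UMIs, its ratio was 2.08 (1.23 to 3.62). *Gstm1*, of the mu class, stood at 13.7 and 16.1 CPM (1.18, 0.972 to 1.42). Its ratio was 0.667 (0.415 to 1.03) for Y-bearing cells and 1.57 (1.14 to 2.21), past the fold, for *Xist*-bearing cells. The count of all genes past the fold higher was larger in *Xist*-bearing ExE cells than in all ExE cells, as given in the last paragraph. Its share of the genes with enough UMIs was not computed. *Mgst1*, the membrane-bound microsomal enzyme, had 1 and 3 UMIs in ExE and allows no comparison.

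The peroxidases were among the most deeply counted members. *Gpx1*, the cytosolic enzyme, stood at 464 and 467 CPM in ExE, from 8043 and 6058 UMIs, and its ratio was 1.0 (0.972 to 1.04). *Gpx4*, which reduces lipid peroxides within membranes, stood at 544 and 535 CPM, from 9432 and 6943 UMIs, a ratio of 0.982 (0.952 to 1.01). Both intervals lay between 0.952 and 1.04. Of the ligase subunits, catalytic *Gclc* stood at 36.1 and 32.6 CPM (0.901, 0.795 to 1.02) and the modifier *Gclm* at 87.5 and 84.0 CPM (0.960, 0.887 to 1.04). The intervals of both ratios held 1.

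Cell by cell the percentile ranges of the other members overlapped between the libraries over most of their width. *Gpx1* had a median of 453 CPM over control ExE cells (10th to 90th percentile 322 to 578) and 459 CPM over *Yap1* cKO ExE cells (316 to 599). *Gpx4* had medians of 525 CPM (360 to 760) and 528 CPM (383 to 714). Both peroxidases had a UMI in every ExE cell. *Gsr* had medians of 148 CPM (82.0 to 219) and 124 CPM (71.2 to 204), so that the shift between the libraries was small beside the range over cells. *Gclm* had medians of 82.2 CPM (45.3 to 144) and 74.6 CPM (40.7 to 135). *Mgst1* had a UMI in 0.546% of control and 2.83% of *Yap1* cKO ExE cells before thinning, below the 4.92% and 9.43% of Ttr.

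**Figure D4:**
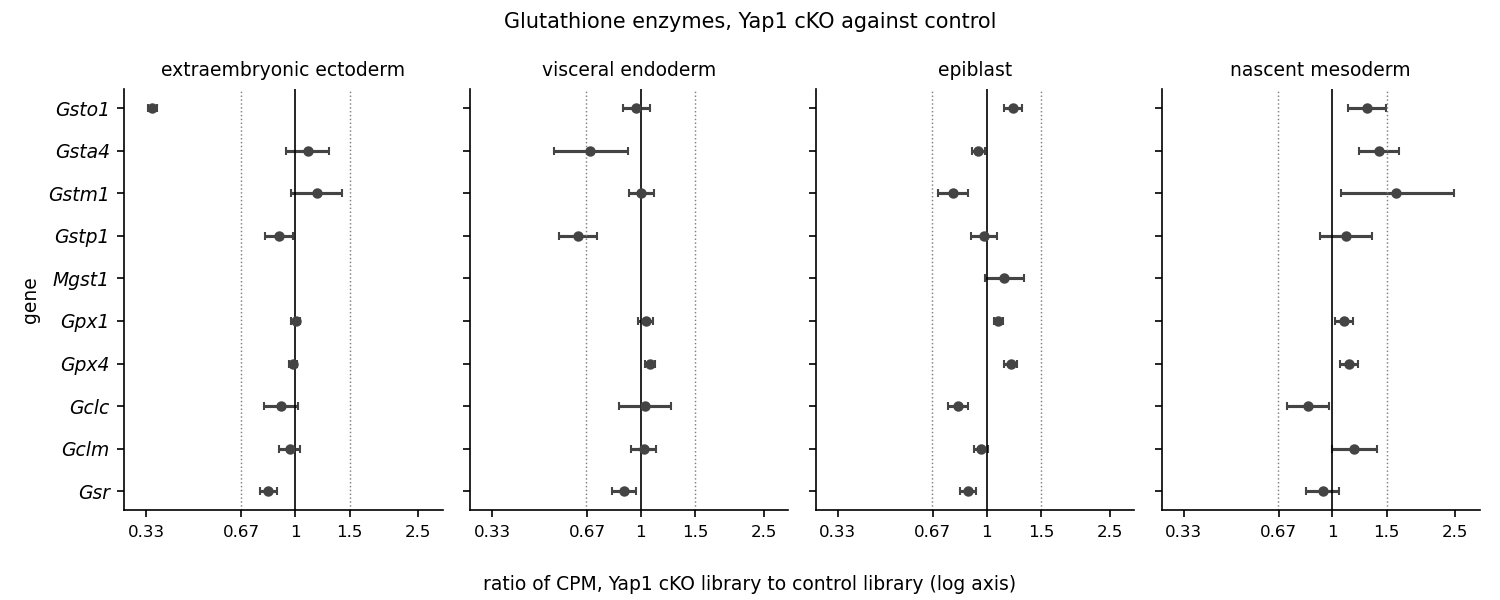
Ratio of CPM in the *Yap1* cKO library to the control library (log axis) for each gene with at least 100 UMIs in ExE, visceral endoderm, epiblast and nascent mesoderm; bars are exact 95% intervals for counting error, the solid line marks 1 and the dotted lines the fold of 1.5. In ExE the point of *Gsto1*, at 0.345, is the 1 member beyond the dotted lines.

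In visceral endoderm 1 of the 8 other members with enough UMIs was past the fold, *Gstp1*, beside 2.61% of all genes lower and 1.81% higher. *Gstp1* stood at 52.2 CPM (313 UMIs) against 32.7 CPM (547 UMIs), a ratio of 0.627 (0.545 to 0.723). The difference was seen in *Xist*-bearing cells, at 56.1 and 31.4 CPM, and not in the 25 and 12 Y-bearing cells, at 43.2 and 53.4 CPM, where the ratio was 1.23 (0.839 to 1.80). *Gsta4* stood at 13.5 and 9.27 CPM (0.687, 0.522 to 0.910), from 81 and 155 UMIs, and *Gpx4* at 724 and 776 CPM (1.07, 1.04 to 1.11). The ratios of *Gstm1*, *Gpx1*, *Gclc* and *Gclm* were 1.0, 1.04, 1.03 and 1.02, each with an interval that held 1. In the few Y-bearing cells, however, *Gstm1* was at 0.531 (0.378 to 0.733), *Gclm* at 0.537 (0.384 to 0.739) and *Gsr* at 0.611 (0.455 to 0.810), all past the fold, against 1.04, 1.11 and 0.894 in *Xist*-bearing cells. The share of all genes past the fold in these Y-bearing cells was not computed, so these calls have no background beside them.

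In the epiblast all 9 other members had at least 100 UMIs and 0 were past the fold, beside 2.04% of all genes lower and 1.53% higher. *Gstm1* had the lowest ratio, 0.780 (0.697 to 0.873), with 29.0 and 22.6 CPM, followed by *Gclc* at 0.807 (0.748 to 0.871), with 61.2 and 49.4 CPM, and by *Gsr*. *Gpx4* had the highest after *Gsto1*, 1.20 (1.14 to 1.26), with 125 and 150 CPM. By sex, *Gstm1* gave 0.635 (Y-bearing, past the fold) and 0.873 (*Xist*-bearing), and *Gclc* 0.685 and 0.897. The share of all genes past the fold in Y-bearing epiblast cells was not computed. *Gclm*, which forms the ligase with *Gclc*, stood at 118 and 114 CPM in the epiblast, with a ratio of 0.959 (0.910 to 1.01). *Gpx1* stood at 263 and 287 CPM (1.09, 1.05 to 1.13), *Gsta4* at 148 and 139 CPM (0.940, 0.896 to 0.985), *Gstp1* at 33.4 and 32.8 CPM (0.982) and *Mgst1* at 14.0 and 16.0 CPM (1.14, 0.985 to 1.33).

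In the primitive streak 7 others had enough UMIs and 0 were past the fold, beside 2.80% of all genes lower and 1.76% higher, with ratios from 0.919 for *Gstp1* to 1.29 for *Gsta4* (1.09 to 1.52). In nascent mesoderm 1 of 8 was past the fold, *Gstm1* with a ratio of 1.61 (1.06 to 2.47) from 34 and 82 UMIs, beside 1.53% of all genes lower and 2.12% higher. The call was not kept by either sex alone, at 1.17 (Y-bearing, 16 and 6 UMIs) and 1.43 (*Xist*-bearing, 18 and 70 UMIs). *Gsta4* followed there, at 48.1 and 68.0 CPM (1.41, 1.22 to 1.64). The median over the 8 was 1.12, beside 0.994 over all genes, and *Gclc* went the other way, at 0.833 (0.715 to 0.973). In blood and endothelial progenitors, from 26 and 28 cells, the intervals of *Gclm* (0.683, 0.542 to 0.858) and *Gsr* (0.744, 0.608 to 0.909) lay below 1 and those of *Gpx4* (1.18, 1.07 to 1.29) and *Gpx1* (1.12, 1.01 to 1.23) above it. By sex, *Gsr* gave 0.511 (Y-bearing, past the fold) and 0.981 (*Xist*-bearing) there. No share of all genes past the fold was computed for these progenitors. In lateral and extraembryonic mesoderm *Gclm* (0.749, 0.606 to 0.925) and *Gsr* (0.819, 0.681 to 0.984) also had intervals below 1. Those of *Gpx1* (1.13, 1.03 to 1.24) and *Gpx4* (1.09, 1.01 to 1.19) lay above it there too.

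The members differed in where they were expressed. Apart from the highest population of *Gpx4*, these patterns recurred in both libraries. *Gsta4* was an epiblast gene, at 148 and 139 CPM there and 112 and 118 CPM in node and axial mesendoderm, and in ExE it stood at 0.209 and 0.265 of its level in the other gated cells. *Mgst1* had the same range, with 14.0 and 16.0 CPM in the epiblast and 13.6 and 15.4 CPM in node cells. A list of 4 globin genes stood at 5.60 CPM in the 17 control node cells and 5453 CPM in the 13 *Yap1* cKO node cells. The part of these genes in the node values was not tested. *Gstm1* was a visceral endoderm gene, at 104 CPM in either library, yet it had 1 UMI in each library in the anterior visceral endoderm. *Gstp1* was highest in the anterior visceral endoderm, at 85.7 CPM (87 UMIs) and 88.5 CPM (141 UMIs). *Gpx4* was high throughout the visceral endoderm, at 724 and 776 CPM and, in its anterior part, 819 and 773 CPM, and lowest in the epiblast. *Gclc* and *Gclm* were highest in the epiblast and *Gsr* in ExE, where it was 1.45-fold and 1.31-fold higher than in the other cells. The highest level of *Mgst1* had an interval that overlapped node cells in both libraries, and that of *Gclc* overlapped nascent mesoderm. In *Yap1* cKO those of *Gsta4* and *Gsr* overlapped node cells. That of *Gpx4* in *Yap1* cKO, in visceral endoderm (762 to 789), overlapped the anterior part (731 to 818). *Gpx1* was highest in ExE, 1.74-fold and 1.60-fold above the other cells.

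**Figure D5:**
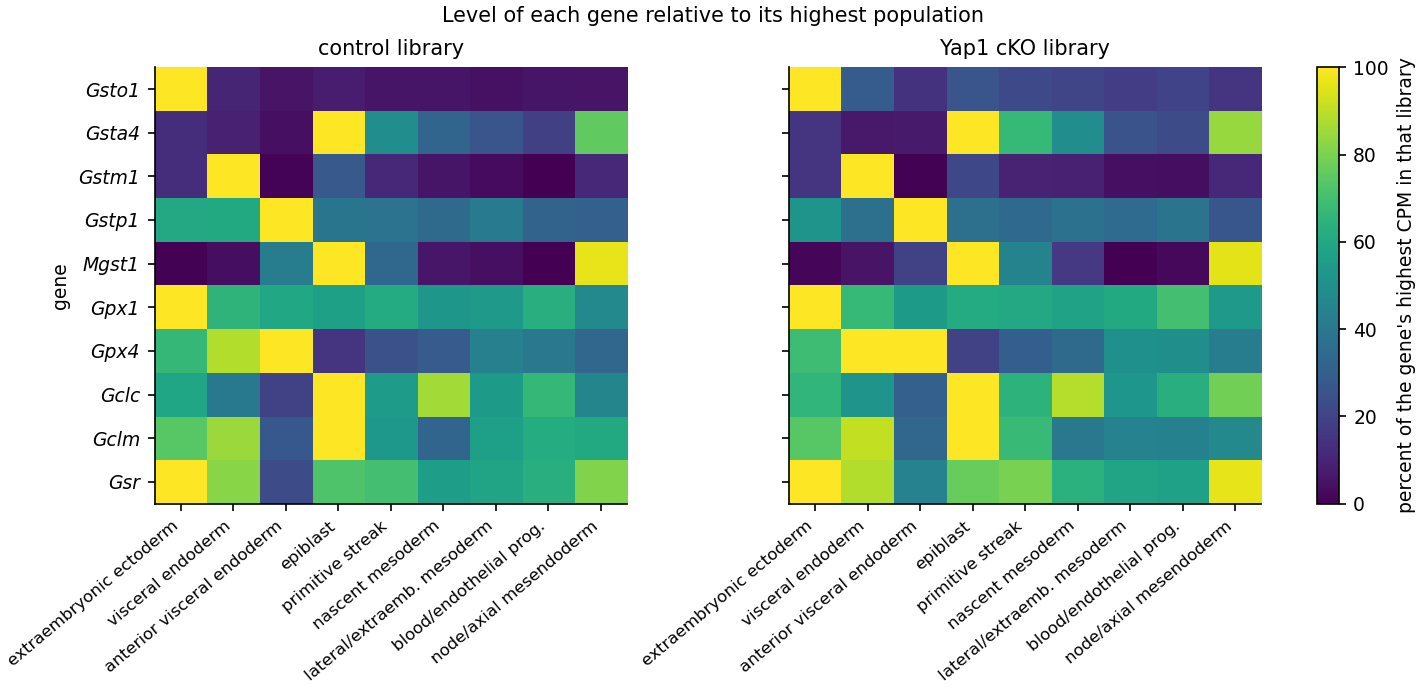
Level of each gene in each population as a percent of its own highest CPM in that library, control on the left and *Yap1* cKO on the right. *Gsto1*, *Gpx1* and *Gsr* are highest in ExE, *Gsta4*, *Mgst1*, *Gclc* and *Gclm* in the epiblast, *Gstm1* in visceral endoderm and *Gstp1* in anterior visceral endoderm in both libraries. *Gpx4* is highest in anterior visceral endoderm in the control and in visceral endoderm in *Yap1* cKO. The interval of the highest level overlaps that of another population for *Mgst1* and *Gclc* in both libraries and for *Gsta4*, *Gsr* and *Gpx4* in *Yap1* cKO.

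Likeness to *Gsto1* was measured as Pearson's r of log2(CPM + 1) over 18 points, the 9 populations of both libraries, which share 2 libraries and are given with no test. Among 9928 genes the 5 most alike were *Dazl* (0.979), *A330069K06Rik* (0.962), *Cmtm5* (0.950), *Gm32846* (0.948) and *EU599041* (0.946), all below 15 CPM in ExE. Their ratios in ExE were 0.530, 0.621, 0.739, 0.640 and 0.884. The intervals of *Cmtm5* (0.478 to 1.13) and *EU599041* (0.724 to 1.08) held 1. The ExE points of both libraries are among the 18, so low ratios here follow in part from the choice. Of the members *Gpx1* came nearest, with r of 0.899 and rank 50, then *Gsr* with 0.513 and *Gclm* with 0.432, and *Gsta4* had -0.223. Over single ExE cells, r between *Gsto1* and *Gpx1* was 0.180 over control cells and 0.474 over *Yap1* cKO cells, and for *Gsr* 0.168 and 0.0563. For *Gclm* it was -0.0415 and 0.387, and for *Gclc* -0.0167 and 0.287. The other members lay between -0.0996 and 0.165. The cells under 100 CPM of *Elf5*, which were low in *Gsto1*, were included.

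The wider glutathione and redox list, chosen with earlier results of these data known, had 58 genes, of which 36 had at least 100 UMIs in ExE. Of these, 0 were past the fold in ExE, 3 had intervals below 1 and 13 above it, and the median ratio was 1.05. Of all 9928 genes in ExE 23.3% had intervals below 1 and 12.5% above it, with a median of 0.961. Those below were *Txnrd1*, cytosolic thioredoxin reductase, at 0.808 (0.770 to 0.849), *Gstcd* at 0.795 (0.691 to 0.914) and the peroxiredoxin *Prdx6* at 0.949 (0.922 to 0.977). Those above included the peroxiredoxins *Prdx1*, at 2014 and 2335 CPM (1.16, 1.14 to 1.18), *Prdx2* (1.21) and *Prdx3* (1.19), mitochondrial glutaredoxin *Glrx2* (1.20) and the glyoxalase *Hagh* (1.23). Of the 14 genes of the NRF2 system 11 had enough UMIs, 0 were past the fold, and the median was 0.933. NRF2 itself, *Nfe2l2*, stood at 73.4 and 68.5 CPM (0.933, 0.855 to 1.02), its inhibitor *Keap1* at 20.3 and 18.7 CPM (0.924, 0.781 to 1.09) and the target *Hmox1* at 148 and 144 CPM (0.968, 0.912 to 1.03). These 3 intervals held 1. *Me1*, malic enzyme, was lower at 0.759 (0.632 to 0.911), and *Cbr1*, carbonyl reductase, was higher at 1.21 (1.08 to 1.36).

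Of that list *Glrx*, cytosolic glutaredoxin, was past the fold in the epiblast, primitive streak and nascent mesoderm, and it is named after its values were seen. It stood at 21.0 and 32.8 CPM in the epiblast (1.56, 1.39 to 1.75), 19 and 32.1 CPM in the primitive streak (1.69, 1.23 to 2.33) and 9.09 and 16.9 CPM in nascent mesoderm (1.86, 1.34 to 2.60). Split by sex, it was 1.45 (1.20 to 1.76) for Y-bearing and 1.5 (1.29 to 1.76) for *Xist*-bearing epiblast cells. In ExE *Glrx* stood at 53.5 and 51.4 CPM (0.961, 0.869 to 1.06), and in visceral endoderm at 222 and 151 CPM (0.682, 0.638 to 0.730). The visceral endoderm ratio was 1.47 (1.23 to 1.76) for the 25 and 12 Y-bearing cells. It was 0.580 (0.537 to 0.627) for *Xist*-bearing cells, and sex and embryo cannot be told apart in this split. Of the list genes with enough UMIs, *Glrx* was the 1 past the fold of 43 in the epiblast and of 28 in the primitive streak. Of all genes there, 1.53% and 1.76% were past it higher, and 2.04% and 2.80% lower. In nascent mesoderm *Gstz1*, at 1.89 (1.24 to 2.95), and *Glrx* were the 2 past it of 35 list genes. *Me1*, at 1.88 (1.26 to 2.87), was the 1 past it of 10 genes of the NRF2 system. Beside them, 2.12% of all genes were past it higher. In visceral endoderm *Ggt1*, at 2.22 from 15 and 93 UMIs, was the 1 past it of 36 list genes, beside 1.81% of all genes higher. *Me1*, at 0.560 from 84 and 131 UMIs, was the 1 past it of 10 in the NRF2 system, beside 2.61% lower.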

How the data were processed

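Cells of E7 embryos were measured in 1 library per genotype. The authors deposited UMI counts per gene and barcode, made with Cell Ranger 7.1.0 at default settings on mm10, without normalization. The members and gene lists were chosen with earlier results of these data known.

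Barcodes with at least 5000 detected genes were kept (the limit of 10% mitochondrial UMIs removed 0 more). Populations were gated on summed marker CPM with thresholds set after the distributions were seen: ExE needed 300 CPM of its list, under 500 CPM of the visceral endoderm list and under 100 CPM of *Pou5f1*. Within 20% of the ExE threshold lay 2 control and 6 *Yap1* cKO cells below and 4 and 3 above. For each population the counts of a library were added up and expressed as CPM. The 95% intervals came from exact methods, Poisson for levels, the conditional binomial for their ratios and Clopper-Pearson for shares of cells, and take in counting error only. Doublets were called with scrublet in scanpy 1.11.5 for an alternative. Y-bearing and *Xist*-bearing cells had at least 2 UMIs of their genes and 0 of the other. Genes named are the members, the 3 nearest coding genes on each side of *Gsto1*, the 5 most like it, list genes past the fold in ExE, markers and *Yap1*. Other named list genes were chosen after their values were seen. Gene positions were taken from GENCODE M21 (GRCm38). Ratios, fold calls and intervals were tried on simulated Poisson counts, which hold no spread between cells, embryos or libraries. Gates, thinning, splits by sex and motif searches were not tried in this way. Alternatives covered cell filters, gates, scalings, free RNA, thinning, cell subsets and thresholds.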

Additional observations from a re-analysis of the deposited data

Results flagged for a closer look

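The *Gsto1* ratio of *Yap1* cKO to control lay below 1 in ExE, at 0.345, and above 1 in 3 of the other main populations, with intervals on opposite sides of 1. It was 1.22 in the epiblast, with 68.5 and 83.3 CPM, 1.33 in the primitive streak, with 52.7 and 70.4 CPM, and 1.29 in nascent mesoderm, with 51.4 and 66.4 CPM. The difference between these populations and ExE was not tested, since each genotype has 1 library, and *Gsto1* was chosen for its ExE value.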

How the results depend on the processing

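No paired analysis was possible because each genotype has 1 library and no result comes from a test. For *Gsto1* in ExE the alternatives reuse the counts on which it was chosen, so they describe only its dependence on settings. The *Gsto1* ratio in ExE (0.345) stayed below 1 under every alternative run. It was 0.329 as a mean of per-cell CPM, 0.359 scaled to the median ratio of all genes, 0.364 with doubled gate thresholds, 0.331 in Y-bearing cells, 0.279 in *Xist*-bearing cells and 0.403 in ectoplacental cone-side cells, and between 0.336 and 0.350 otherwise, including the 2 alternatives added after seeing the data, without *Prl3d1* cells and with at least 100 CPM of *Elf5*.

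The fold was also set looser, at 25% above 1, and stricter, at 2. For members other than *Gsto1*, the count past the fold in ExE was 0 except for 1 higher in *Xist*-bearing cells. In visceral endoderm the count lower (1) became 2 with at least 2000 genes, 3 in Y-bearing cells, 0 in thinned cells, 2 at the looser fold and 0 at a fold of 2. In nascent mesoderm the count higher (1) became 0 with at least 2000 genes, halved gates, Y-bearing cells, *Xist*-bearing cells, thinned cells, at least 500 UMIs or a fold of 2, and 2 with at least 20 UMIs or the looser fold, while the count lower (0) became 1 in Y-bearing cells. In the epiblast the count lower (0) became 1 in Y-bearing cells and at the looser fold, and in the primitive streak the count higher (0) became 1 in Y-bearing cells, with at least 20 UMIs and at the looser fold. Outside ExE the matching counts over all genes were not computed. These changes are therefore not read as particular to the members.

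Of the 24 member ratios whose own interval did not hold 1, 4 turned to the other side of 1 under an alternative. They were *Gsto1* in the epiblast (0.787, doubled gates), *Gsto1* in nascent mesoderm (0.987, Y-bearing cells), *Gstp1* in visceral endoderm (1.23, Y-bearing cells) and *Gpx4* in the primitive streak (0.949 with halved gates, 0.964 in Y-bearing cells). The causes were not tested. Of the 21 ratios whose interval held 1, 14 crossed it at least once, among them *Gclm* in visceral endoderm (0.537) and *Gstm1* in ExE (0.667) in Y-bearing cells, *Gclc* in ExE (1.06, *Xist*-bearing cells) and in the primitive streak (1.22, Y-bearing cells) and *Gsto1* in visceral endoderm (1.16 with free RNA subtracted). Counted as pairs of a member ratio and an alternative, and leaving out *Gsto1* in ExE, 551 stayed within the main interval. Another 48 moved outside it, and 5 were the turns of the 4 ratios named above.

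Over all ExE genes, 131 were past the fold lower and 135 higher. The count lower was 663 in Y-bearing cells, 586 with at least 20 and 22 with at least 500 UMIs, 907 at the looser fold and 21 at a fold of 2. The count higher was 208 as a mean of per-cell CPM, 67 with doubled gates, 79 in Y-bearing, 230 in *Xist*-bearing, 50 in cone-side and 83 in *Elf5*-bearing cells, 87 in thinned cells, 707 and 15 with at least 20 and 500 UMIs, and 478 and 56 at the looser fold and at 2. With 1 library per genotype, differences between pools, embryos and libraries cannot be told apart from genotype, and members under 100 UMIs could not be compared at this depth.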
